A study of Saccharomyces cerevisiae with 6 samples.

Results

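The iron uptake regulon of budding yeast (Saccharomyces cerevisiae) was followed through 10 genes chosen by name, though with earlier results of these data known. They were AFT1, FET3, FTR1, FIT1, FIT2, FIT3, ARN1, ARN2, SIT1 and CCC1, which are 10 of the 9891 rows of the deposited count table. RNA-seq had been run on 3 libraries of purified quiescent cells and 3 libraries of log-phase cells, which the labels call biological replicates. Quiescent cells came from a stationary culture at day 7 and were the fraction purified on Percoll density gradients, and log cells were growing exponentially and were collected at an OD600 of 0.8 to 1.0. Both groups were strain YCH406 (MATa), grown at 30 C in rich medium (YPD) with added adenine and ampicillin. In all cells of both groups, the chromosomal HTA1-HTB1 and HTA2-HTB2 histone gene pairs are replaced by LEU2 and TRP1. The strain takes HTA1-HTB1 from the URA3 plasmid pSAB6 and HTA1-Flag-HTB1 from the HIS3 plasmid pZS145. It also carries the tagged polymerase subunit RPB3-9Myc::hphNT1 and the alleles his3∆200, leu2∆1, ura3-52 and trp1∆. None of the listed alleles is an iron gene, and the labels give no iron concentration or chelator.

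Yeast takes up iron by several routes. At the plasma membrane, surface reductases (the FRE proteins) reduce ferric iron, the multicopper oxidase Fet3 oxidises it again and the permease Ftr1 carries it inward, and the 2 proteins work as a complex. Iron bound to siderophores, iron chelators secreted by other microbes, is imported by Arn1, Arn2, Sit1 and Enb1, and the cell wall mannoproteins Fit1, Fit2 and Fit3 help to hold it near the cell. The transcription factor Aft1 turns these genes on when iron is short, through sites with the core letters TGCACCC, and its paralog Aft2 has overlapping targets. Ccc1 moves iron into the vacuole for storage, and its gene is known as a target of Yap5 under high iron.

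The sequence upstream of the members is shown as a description. Because Aft1 is known to turn on genes of this regulon through TGCACCC, a high share of matches is not independent of their choice. In the RefSeq genome of build R64, the 300 bases before the annotated gene start held TGCACCC, searched on both strands, in 7 of the 10 members. The same window held it in 79 of 5987 nuclear protein-coding genes, a share of 1.32%, and held at least 2 matches in 8 of them (0.134%). FIT2 had 3 matches, FIT1 and FIT3 had 2 each, and FET3, FTR1, ARN1 and SIT1 had 1 each. AFT1, ARN2 and CCC1 had no match in this window. The 6 windows below belong to the 5 members that passed the test, of which ARN2 has no match, and to FIT2, the relative of FIT1 and FIT3 that did not pass. They are written from the far end to the base before the gene start on the coding strand. Capitals mark TGCACCC or, for a match on the other strand, GGGTGCA.
FIT1 (chrIV:1504901-1505200, minus strand): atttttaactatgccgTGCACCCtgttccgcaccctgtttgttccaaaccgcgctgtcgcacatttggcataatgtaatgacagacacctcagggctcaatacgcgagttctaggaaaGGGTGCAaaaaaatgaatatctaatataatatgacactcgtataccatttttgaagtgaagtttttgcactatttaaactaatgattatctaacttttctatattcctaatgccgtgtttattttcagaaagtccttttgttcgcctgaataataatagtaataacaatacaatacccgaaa
FIT3 (chrXV:1061056-1061355, minus strand): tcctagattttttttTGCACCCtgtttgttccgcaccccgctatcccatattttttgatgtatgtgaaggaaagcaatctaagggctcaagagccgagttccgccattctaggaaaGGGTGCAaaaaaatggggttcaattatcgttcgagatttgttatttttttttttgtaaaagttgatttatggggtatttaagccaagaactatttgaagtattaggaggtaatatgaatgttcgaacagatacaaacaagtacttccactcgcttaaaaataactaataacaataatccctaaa
FIT2 (chrXV:1059231-1059530, plus strand): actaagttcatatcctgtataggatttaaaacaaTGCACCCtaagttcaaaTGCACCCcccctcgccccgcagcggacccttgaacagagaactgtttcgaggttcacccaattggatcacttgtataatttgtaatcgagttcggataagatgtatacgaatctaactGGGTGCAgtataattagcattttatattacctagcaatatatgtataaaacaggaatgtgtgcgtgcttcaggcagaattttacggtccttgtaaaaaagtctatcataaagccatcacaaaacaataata
FET3 (chrXIII:388522-388821, plus strand): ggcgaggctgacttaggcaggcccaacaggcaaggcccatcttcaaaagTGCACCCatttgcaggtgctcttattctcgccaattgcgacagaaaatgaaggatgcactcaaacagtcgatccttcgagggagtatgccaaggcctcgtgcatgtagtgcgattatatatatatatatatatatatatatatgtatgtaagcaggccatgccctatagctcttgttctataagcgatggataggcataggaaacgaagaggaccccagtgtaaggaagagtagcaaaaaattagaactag
FTR1 (chrV:461741-462040, minus strand): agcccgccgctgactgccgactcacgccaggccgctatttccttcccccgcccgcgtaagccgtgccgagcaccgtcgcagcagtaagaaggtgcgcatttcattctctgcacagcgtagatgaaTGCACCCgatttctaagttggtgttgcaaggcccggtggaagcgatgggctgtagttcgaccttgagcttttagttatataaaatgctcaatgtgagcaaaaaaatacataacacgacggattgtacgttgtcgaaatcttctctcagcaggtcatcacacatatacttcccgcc
ARN2 (chrVIII:10214-10513, minus strand): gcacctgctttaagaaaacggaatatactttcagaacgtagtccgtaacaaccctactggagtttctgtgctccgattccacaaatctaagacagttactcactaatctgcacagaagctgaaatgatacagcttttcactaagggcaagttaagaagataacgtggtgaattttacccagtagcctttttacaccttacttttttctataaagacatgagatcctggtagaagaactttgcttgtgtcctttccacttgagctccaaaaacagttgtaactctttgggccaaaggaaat

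The windows of FIT1 and FIT3 aligned with 68.1% identity over 279 bases and shared an unbroken run of 25 bases, which contained the match on the other strand, 192 to 168 bases before FIT1 and 194 to 170 bases before FIT3. The windows of FIT1 and FIT2 had 59.8% identity, those of FIT2 and FIT3 52.5%, and those of FET3 and FTR1, which are not related genes, 54.5%. FIT2 shared no run longer than 8 bases with FIT1 and 9 with FIT3. For the siderophore transporter genes ARN1 and SIT1, 27 bases around the single match are given, with the match in capitals.
ARN1 (chrVIII:21215-21241, minus strand): tttatcaaaaTGCACCCataaaagcag
SIT1 (chrV:27459-27485, plus strand): acacatttgaGGGTGCAatctggttcg
A match is a description of the letters and was not tested as a binding site.

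**Figure D1:**
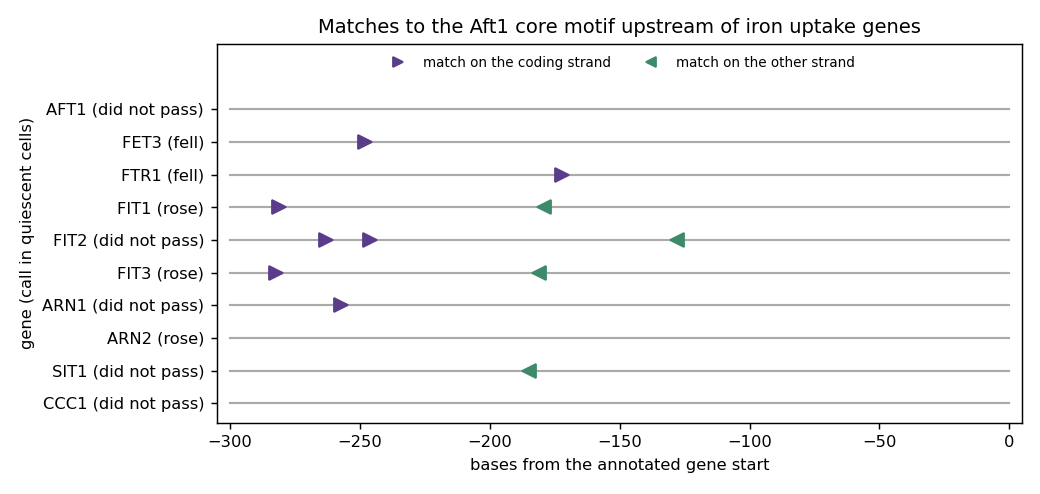
Position of each match to the Aft1 core motif in the 300 bases before the annotated start of the 10 genes, in bases from that start. Arrows show the strand of the match, and the label gives each gene's call in quiescent against log cells. FIT1 and FIT3 have a match on each strand at nearly the same distances, and 3 genes have none.

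Libraries held 8894585 to 12696572 counts in quiescent cells and 10476761 to 14213993 in log cells. Nuclear protein-coding genes held 26.6% to 39.1% of counts in quiescent libraries and 63.7% to 71.6% in log libraries, and the part of this difference in the results was not tested. All 6 genes listed as marks of the quiescent state (HSP12, HSP26, SSA3, SPG4, CTT1 and ADY2) rose, as did 31.8% of all genes. All 5 listed for log growth (ENO2, PMA1, RPS22A, CIS3 and ACT1) fell, as did 41.0% of all genes. These lists were chosen with earlier results of these data known, so the labels were not tested by them. Changes are log2 fold changes, quiescent minus log, from the edgeR quasi-likelihood test on counts with TMM scaling, with an approximate standard error (SE) and a Benjamini-Hochberg adjusted p over 7305 tested rows. The SE of an edgeR change was derived as the absolute change divided by the square root of the F statistic of that test. Levels are CPM (counts scaled to library size times the TMM factor) for a gene across libraries, and TPM (scaled by gene length) between genes. The median of all genes was -0.21 on this scale and -0.98 in limma on log2(TPM + 1), the TPM scale. The change of each of the 10 members is therefore also given relative to the median of its scale. Changes of other genes on the TPM scale are given as fitted, so each is to be read against the median of -0.98.

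The members did not move as 1 group. In quiescent cells 3 of the 10 rose (FIT1, FIT3 and ARN2), 2 fell (FET3 and FTR1) and 5 did not pass (AFT1, FIT2, ARN1, SIT1 and CCC1). Over all 5608 genes tested, 31.8% rose and 41.0% fell, and 72.8% passed in either direction. The groups did not overlap in 6 of the 10 members (those 5 and ARN1), against 77.8% of all genes, so none of these shares of the members was above that of all genes. The median change of the 10 members was 0.13, against -0.21 over all genes. On the TPM scale the split was 1 risen (FIT1) and 6 fallen (FET3, FTR1, AFT1, FIT2, SIT1 and CCC1), where 14.2% of all genes rose and 60.1% fell. Of those 6, AFT1 and CCC1 lay above the median of all genes on that scale. These are bulk libraries, in which less RNA per cell and fewer cells that express a gene cannot be told apart. Levels are relative to the other rows of a library, so RNA per cell was not measured.

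FET3 and FTR1, the oxidase and the permease of high-affinity iron uptake, fell in quiescent cells. FET3 (YMR058W, chrXIII:388822-390732) had 103, 55.1 and 55.8 CPM in quiescent replicates 1, 2 and 3, against 450.4, 268 and 459 CPM in log replicates 1, 2 and 3. Every quiescent library lay below every log library. The mean was 71.3 ± 27.4 CPM in quiescent cells and 392 ± 108 CPM in log cells (SD, n = 3 each), a change of -2.46 (SE 0.32, edgeR adjusted p = 6.63e-05). FTR1 (YER145C, chrV:460526-461740) had 49.7, 15.7 and 33.6 CPM in quiescent replicates 1, 2 and 3, against 96.5, 69.8 and 107 CPM in log replicates 1, 2 and 3. Its groups did not overlap either, though its quiescent libraries spread more widely. The change of FTR1 was -1.46 (SE 0.36, edgeR adjusted p = 0.00445), and with a filter of 10 TPM it was -0.97 (adjusted p = 0.0490), or -0.46 relative to the median there. Relative to the median of all genes the 2 changes were -2.25 and -1.25, and on the TPM scale they were -2.35 and -1.40 relative to its own median.

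In these libraries FET3 fell by more than FTR1. The ratio of FET3 to FTR1 in reads per base, which does not depend on scaling between libraries, was 1.32, 2.23 and 1.06 in quiescent replicates 1, 2 and 3, and 2.97, 2.44 and 2.74 in log replicates 1, 2 and 3. It was lower in every quiescent library than in any log library, by -0.89 on the log2 scale. The exact two-sided permutation p was 0.1, the smallest that 3 against 3 libraries allow, and 0.12 adjusted over the 6 ratios computed, so this difference could not pass a threshold of 0.05.

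Of the 3 cell wall mannoprotein genes, FIT3 and FIT1 rose on the edgeR scale and FIT2 did not pass. FIT3 (YOR383C, chrXV:1060441-1061055) had 211, 165 and 101 CPM in quiescent replicates 1, 2 and 3, against 55.8, 33.6 and 52.1 CPM in log replicates 1, 2 and 3. All quiescent libraries were higher, and the change was 1.75 (SE 0.30, edgeR adjusted p = 0.000415), a call that limma on log2(TPM + 1) did not make (0.69, adjusted p = 0.150). Relative to the median of all genes it was 1.97 in edgeR and 1.68 on the TPM scale. FIT1 (YDR534C, chrIV:1503314-1504900) had 10.5, 29.2 and 10.6 CPM in quiescent replicates 1, 2 and 3, and 3.15, 2.33 and 3.57 CPM in log replicates 1, 2 and 3. It rose by 2.47 (SE 0.44, edgeR adjusted p = 0.00059), with quiescent replicate 2 far above the other 2, and by 1.82 without that library. Its change relative to the median was 2.68 in edgeR and 1.77 on the TPM scale. FIT1 had 28 to 49 reads in a log library and 99 to 334 in a quiescent one, and its SE was the largest of the 10. Its mean was 0.879 TPM in log cells and 2.49 TPM in quiescent cells, so it passed the filter of 1 TPM only through the quiescent libraries. Without a filter its change was 2.32 (edgeR adjusted p = 0.000488).

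FIT2 (YOR382W, chrXV:1059531-1059992), the neighbour of FIT3, had 41.4, 32.1 and 15.3 CPM in quiescent replicates 1, 2 and 3, and 36.5, 28.0 and 22.9 CPM in log replicates 1, 2 and 3. The groups overlapped fully, with a change of 0.03 (SE 0.33, edgeR adjusted p = 0.949), which is 0.24 relative to the median, and -0.03 relative to it on the TPM scale. The coding strands of FIT2 and FIT3 converge, with 448 bases between the genes. The ratio of FIT2 to FIT3 in reads per base was 0.262, 0.259 and 0.202 in quiescent replicates 1, 2 and 3, and 0.871, 1.11 and 0.587 in log replicates 1, 2 and 3. FIT3 thus stood well above FIT2 per base in every quiescent library, and nearer to it in every log library (-1.79 on the log2 scale, exact two-sided permutation p = 0.1, the smallest possible). The ratio of FIT3 to FIT1 overlapped between the groups, with a mean of 30.4 ± 19.3 in quiescent cells and 40.2 ± 4.81 in log cells (SD, n = 3 each, exact two-sided permutation p = 0.4).

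**Figure D2:**
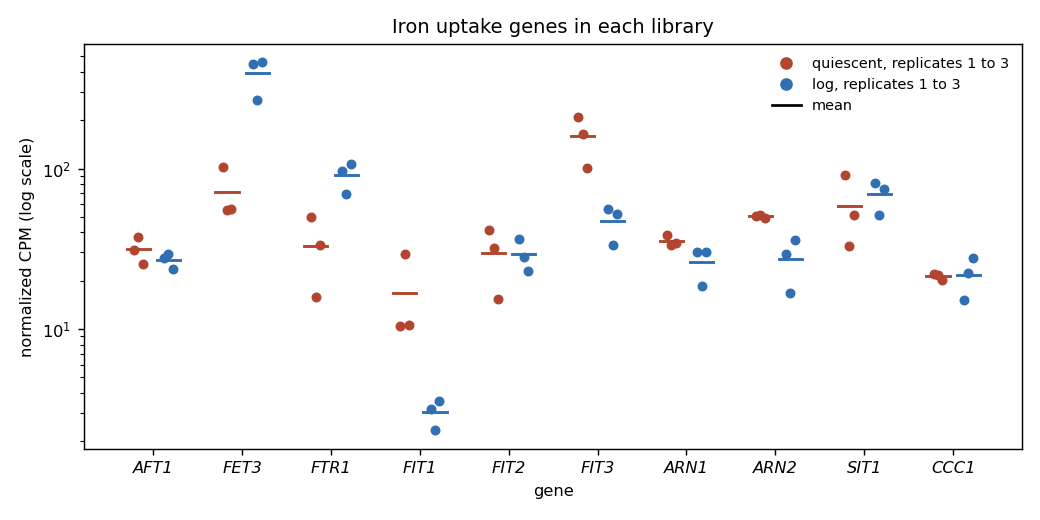
Normalized CPM, on a log axis, of the 10 genes in each of the 3 quiescent and 3 log libraries (points), with the group means (lines). FET3 and FTR1 lie lower and FIT1, FIT3, ARN1 and ARN2 lie higher in all quiescent libraries than in any log library, while AFT1, FIT2, SIT1 and CCC1 overlap.

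Of the siderophore transporter genes among the members, ARN2 rose on the edgeR scale, and ARN1 and SIT1 did not pass. ARN2 (YHL047C, chrVIII:8351-10213) had 50.4, 51.1 and 49.5 CPM in quiescent replicates 1, 2 and 3, and 29.3, 16.8 and 36.1 CPM in log replicates 1, 2 and 3. The quiescent libraries agreed closely and all lay above the log libraries, and the change was 0.87 (SE 0.26, edgeR adjusted p = 0.0122), although it was -0.07 on the TPM scale and missed the threshold with total-count scaling (0.68, adjusted p = 0.0638). Relative to the median it lay at 1.09 in edgeR and 0.92 on the TPM scale. ARN1 (YHL040C, chrVIII:19088-20971) had 38.6, 33.5 and 34.2 CPM in quiescent replicates 1, 2 and 3, and 30.3, 18.5 and 30.1 CPM in log replicates 1, 2 and 3. Its groups did not overlap, but the change of 0.43 (SE 0.22) did not pass (edgeR adjusted p = 0.110). It passed with TMM from protein-coding rows (0.66, adjusted p = 0.0242) and was -0.46 on the TPM scale, while its distance from the median was 0.64 in edgeR and 0.52 on the TPM scale.

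SIT1 (YEL065W, chrV:27657-29543) had 91.7, 32.7 and 51.4 CPM in quiescent replicates 1, 2 and 3, and 81.0, 51.5 and 75.1 CPM in log replicates 1, 2 and 3. Quiescent replicate 1 was the highest of the 6 libraries and quiescent replicate 2 the lowest, so the groups overlapped (-0.24, SE 0.34, edgeR adjusted p = 0.546). SIT1 lay near the median on both scales, at -0.03 and -0.23 from it. The ratio of SIT1 to ARN1 in reads per base was 2.37, 0.975 and 1.50 in quiescent replicates 1, 2 and 3, and 2.67, 2.78 and 2.49 in log replicates 1, 2 and 3, without overlap (exact two-sided permutation p = 0.1, the smallest possible). The enterobactin transporter gene ENB1, the fourth of the family, fell to 23.5 ± 2.39 CPM in quiescent cells, against 44.6 ± 11.3 CPM in log cells (SD, n = 3 each, -0.92, SE 0.22, edgeR adjusted p = 0.00418).

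Neither the regulator gene nor the vacuolar importer gene passed. AFT1 (YGL071W, chrVII:372012-374084) had 30.9, 37.6 and 25.4 CPM in quiescent replicates 1, 2 and 3, and 27.7, 29.2 and 23.5 CPM in log replicates 1, 2 and 3 (0.23, SE 0.20, edgeR adjusted p = 0.339). The groups overlapped. On the TPM scale the change was -0.64 (limma adjusted p = 0.0340), but relative to the median of all genes it was 0.44 in edgeR and 0.34 on the TPM scale. CCC1 (YLR220W, chrXII:576825-577793) had 21.9, 21.7 and 20.3 CPM in quiescent replicates 1, 2 and 3, and 15.1, 22.3 and 27.8 CPM in log replicates 1, 2 and 3. Its quiescent libraries sat inside the range of the log libraries (-0.03, SE 0.24, edgeR adjusted p = 0.921). On the TPM scale its change was -0.88 (limma adjusted p = 0.0115), and relative to the median it was 0.18 in edgeR and 0.11 on the TPM scale. The ratio of CCC1 to FTR1 in reads per base was 0.554, 1.73 and 0.757 in quiescent replicates 1, 2 and 3, against 0.196, 0.401 and 0.327 in log replicates 1, 2 and 3, higher in every quiescent library (exact two-sided permutation p = 0.1, the smallest possible).

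**Figure D3:**
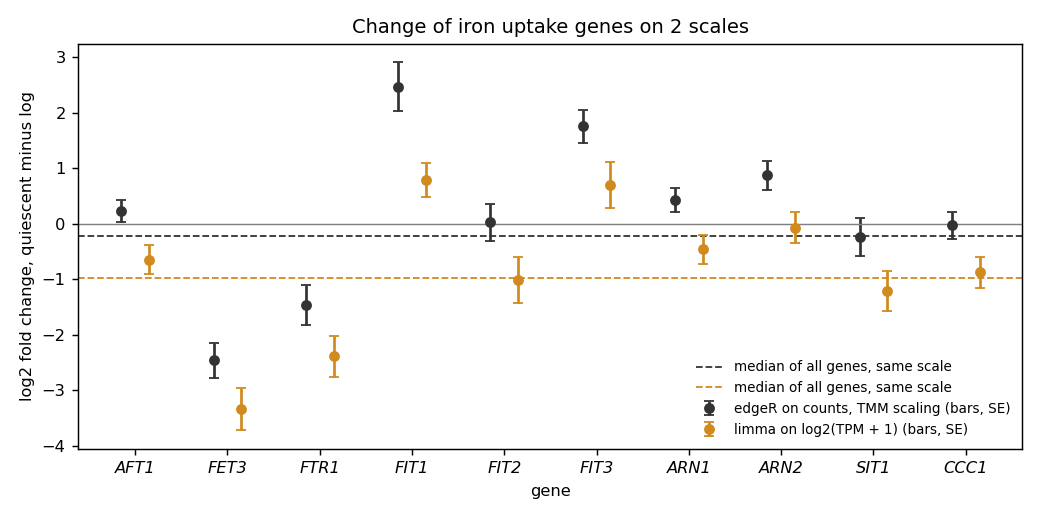
Log2 fold change, quiescent minus log, of the 10 genes with bars of 1 SE, from edgeR on counts and from limma on log2(TPM + 1), with the median of all genes on each scale as a dashed line. The 2 medians lie at -0.21 and -0.98, and FET3 and FTR1 lie below and FIT1, FIT3 and ARN2 above the median on both scales.

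The paralog AFT2 changed where AFT1 did not pass. AFT2 (YPL202C) had 56.1, 121 and 67.7 CPM in quiescent replicates 1, 2 and 3, against 14.6, 12.5 and 12.2 CPM in log replicates 1, 2 and 3. It rose by 2.64 (SE 0.29, edgeR adjusted p = 2.15e-05), and it also rose on the TPM scale (1.38, adjusted p = 0.00063). The ratio of AFT1 to AFT2 in reads per base was 0.333, 0.188 and 0.227 in quiescent replicates 1, 2 and 3, and 1.14, 1.41 and 1.17 in log replicates 1, 2 and 3. AFT1 was thus the lower of the pair in every quiescent library and the higher in every log library (-2.35 on the log2 scale, exact two-sided permutation p = 0.1, the smallest possible, and 0.12 adjusted over the 6 ratios).

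**Figure D4:**
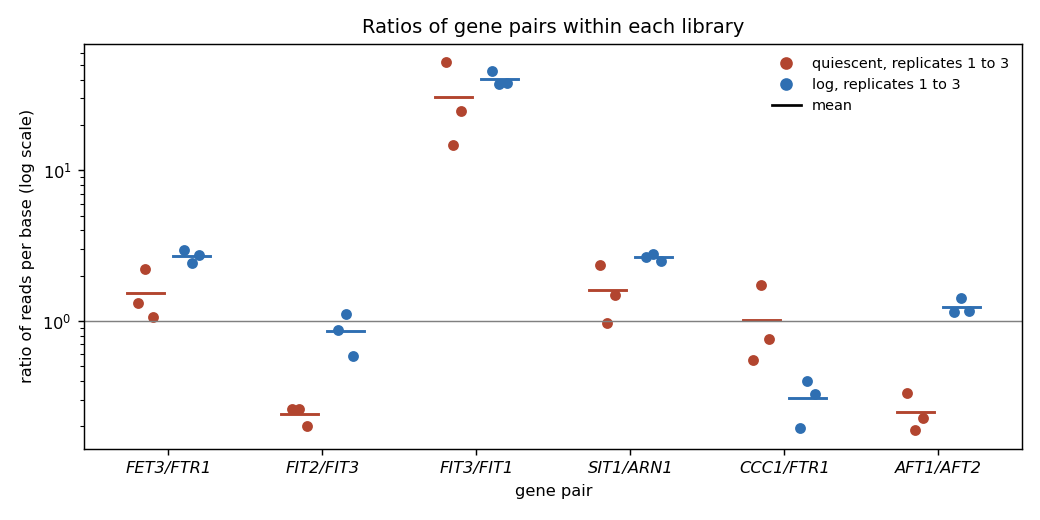
Ratio of reads per base of 6 gene pairs within each quiescent and each log library, on a log axis (points, with group means as lines). Only FIT3/FIT1 overlaps between the groups, and AFT1/AFT2 is below 1 in the 3 quiescent libraries and above 1 in the 3 log libraries.

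By level per base, the order of the members differed between the states. In quiescent cells FIT3 stood highest at 28.7 to 97.1 TPM, above FIT2 (5.79 to 25.4 TPM) in range, and each of the other 8 overlapped its neighbour in the order. They were FET3 (9.09 ± 5.41 TPM), SIT1 (7.56 ± 5.37), FTR1 (6.50 ± 4.47), ARN2 (6.29 ± 1.54), CCC1 (5.15 ± 1.40), ARN1 (4.42 ± 1.32), AFT1 (3.58 ± 1.25) and FIT1 (2.49 ± 1.72; SD, n = 3 each). In log cells FET3 stood highest at 64.8 to 113 TPM, apart from FIT3 (25.3 to 40.9 TPM), which overlapped FTR1 (26.6 to 41.5 TPM) and FIT2 (23.5 to 35.6 TPM). SIT1 (12.6 to 19.3 TPM), CCC1, ARN2, ARN1 and AFT1 followed, of which each overlapped the next, and FIT1 was lowest at 0.680 to 1.06 TPM.

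Libraries of 1 group differed in several members at once. Quiescent replicate 1 was the highest quiescent library in 7 of the 10 members, all but AFT1, FIT1 and ARN2, and it also had the largest share of protein-coding counts (39.1%, against 30.8% and 26.6% in the other 2). Log replicate 2 was the lowest log library in 7 of the 10, all but AFT1, FIT2 and CCC1. The part of either library in the results was measured only by leaving it out. Without any 1 library, the 3 risers and 2 fallers passed the edgeR test in each of the 6 fits.

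Of the 10 members, 6 lie near a chromosome end, which the rule did not use. FIT1, FIT2, FIT3, ARN1, ARN2 and SIT1 lie 8.35 to 31.3 kb from the end of their chromosome, and FTR1, AFT1, FET3 and CCC1 lie 115 to 500.4 kb from it. The 3 risers are among the 6 near an end, and the 2 fallers are among the 4 others. Of all genes within 40 kb of an end, a limit set after these positions were seen, 411 were tested, and 43.3% rose and 29.2% fell, with a median change of 0.39. FIT2 and FIT3 stand between the reductase genes FRE3 and FRE5 on chromosome XV, with the annotated gene YOR381W-A next to FRE3. FRE3 had 74.8 ± 10.5 CPM in quiescent cells and 28.8 ± 6.21 CPM in log cells, and FRE5 had 18.0 ± 2.81 and 5.91 ± 1.12 CPM (SD, n = 3 each). Both rose on the edgeR scale (1.38, SE 0.21, and 1.61, SE 0.25; adjusted p = 0.000227 and 0.00027) and did not pass on the TPM scale (0.33 and 0.37), so of FRE3, FIT2, FIT3 and FRE5 only FIT2 did not pass in edgeR.

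The members could be counted apart from their relatives. No stretch of 30 bases of any member gene occurred elsewhere in the R64 genome, although 18.2% of the stretches of FIT1 and 3.07% of those of FIT3 recurred within the gene itself. The closest pair was FIT1 and FIT3, at 70.6% identity over 595 aligned bases, and ARN1 and ARN2 had 61.6%. The strand setting of the counting is not given in the sources used here, so whether antisense reads entered these counts is not known.

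Genes with the Aft1 core letters upstream went both ways. Of the 72 genes other than members with a match, 67 were tested, of which 46.3% rose and 29.9% fell, with a median of 0.49, against 31.8%, 41.0% and -0.21 over all genes. Some risers, such as RRT6 (0.740 TPM), averaged under 1 TPM in log cells and passed the filter only through the quiescent libraries. Some fallers, such as PRY3 (0.794 TPM), averaged under 1 TPM in quiescent cells and passed it only through the log libraries. The part of such genes in these shares was not tested. The 8 genes with at least 2 matches were FIT1, FIT2, FIT3, TIS11, ENB1, CCC2, PET8 and RKM5. Of these FIT1, FIT3, TIS11 and CCC2 rose, ENB1 fell, and FIT2, PET8 (-0.04, SE 0.21) and RKM5 (0.60, SE 0.42) did not pass.

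Around the members, 85 other genes of metal handling were listed by function. Of the 83 tested, 29 rose (34.9%) and 37 fell (44.6%), near the 31.8% and 41.0% of all genes, with the same median of -0.21. Of 8 regulator and sensor genes, 4 rose and 2 fell, against 31.8% and 41.0% of all genes. TIS11 (also called CTH2), whose product promotes the decay of mRNAs for iron-using proteins when iron is short, had 55.1, 15.2 and 57.8 CPM in quiescent replicates 1, 2 and 3, against 4.34, 5.91 and 4.44 CPM in log replicates 1, 2 and 3. It rose by 3.12 (SE 0.45, edgeR adjusted p = 0.000151), while its paralog CTH1 did not pass (0.14, SE 0.21) and was at -0.73 on the TPM scale (limma adjusted p = 0.0199), where the median was -0.98. Of the proteins that pass the iron-sulfur signal to Aft1, the gene of Fra1 rose (2.02, SE 0.17), that of the glutaredoxin Grx3 fell (-3.05, SE 0.25), that of Bol2, also called Fra2, fell (-1.13, SE 0.27), and GRX4 did not pass (-0.21, SE 0.24). YAP5, the activator of CCC1, rose by 1.27 (SE 0.34, edgeR adjusted p = 0.00685) and did not pass on the TPM scale (0.22).

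Of 8 metalloreductase genes 7 were tested, of which 5 rose on the edgeR scale (71.4%, against 31.8% of all genes) and 1 fell (14.3%, against 41.0%), with a median of 1.38. Among the risers, FRE4 averaged 0.799 TPM in log cells and 2.46 TPM in quiescent cells. It thus passed the filter of 1 TPM only through the quiescent libraries. FRE1, a main surface reductase, had 14.2, 10.7 and 15.7 CPM in quiescent replicates 1, 2 and 3, against 46.4, 42.5 and 34.1 CPM in log replicates 1, 2 and 3 (-1.60, SE 0.22, edgeR adjusted p = 8.63e-05). FRE2, the other, had 15.7, 19.2 and 29.6 CPM in quiescent replicates 1, 2 and 3, and 6.86, 5.25 and 7.79 CPM in log replicates 1, 2 and 3. The 2 thus differed in direction, with FRE2 at 1.69 (SE 0.29, edgeR adjusted p = 0.000497), a call lost on the TPM scale (0.41).

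The vacuolar counterparts of FET3 and FTR1 did not follow them. FET5 and FTH1 encode an oxidase and permease pair that moves iron out of the vacuole. FET5 had 117 ± 6.69 CPM in quiescent cells and 64.7 ± 9.01 CPM in log cells (0.85, SE 0.18, edgeR adjusted p = 0.00177), and FTH1 had 64.8 ± 13.4 and 31.3 ± 4.21 CPM (1.05, SE 0.21, adjusted p = 0.0012; SD, n = 3 each). On the TPM scale, where the median of all genes was -0.98, these were -0.15 and 0.02 and neither passed. With total-count scaling FET5 did not pass (0.64). SMF3, another exporter of vacuolar iron, did not pass (0.42, SE 0.20, and -0.54 on the TPM scale). Of the whole list of 10 other transporters 4 rose and 3 fell, against 31.8% and 41.0% of all genes. The low-affinity iron transporter gene FET4 fell by 2.14 (SE 0.29). Of the paired mitochondrial iron carriers, MRS4 rose by 2.28 (SE 0.27) and MRS3 fell by 2.55 (SE 0.30), with 50.9 ± 18.3 and 3.93 ± 1.49 CPM in quiescent cells against 10.5 ± 1.44 and 23.1 ± 0.944 CPM in log cells (SD, n = 3 each).

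Fet3 needs copper, which the chaperone Atx1 hands to the pump Ccc2. ATX1 fell to 4.81 ± 2.16 CPM in quiescent cells, against 13.5 ± 2.69 CPM in log cells (SD, n = 3 each; -1.48, SE 0.35, edgeR adjusted p = 0.00358), and did not pass when only rows of 10 TPM or more entered (-1.01). CCC2 had 43.2 ± 6.49 CPM in quiescent cells and 22.7 ± 2.24 CPM in log cells (0.93, SE 0.19, edgeR adjusted p = 0.00153), while limma on log2(TPM + 1) gave -0.07. Of 6 copper supply genes, 5 were tested, and 1 rose and 3 fell, against 31.8% and 41.0% of all genes. Of 5 zinc transport genes 1 rose, the regulator gene ZAP1 (1.65, SE 0.18, and 0.55 on the TPM scale, where it did not pass), and 2 fell, led by the vacuolar zinc transporter gene ZRC1 (-1.88, SE 0.23).

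Genes that use iron fell more often than they rose. Of 23 iron-using enzyme genes 14 fell (60.9%) and 6 rose (26.1%), against 41.0% and 31.8% of all genes, with a median of -0.70, the sterol desaturase gene ERG3 at -4.49 (SE 0.28) and the peroxisomal catalase gene CTA1 at 8.93 (SE 0.35). Of 9 heme genes 5 fell (55.6%) and 2 rose (22.2%), with a median of -0.82. HEM13, of heme synthesis, fell by 3.49 (SE 0.42), and HMX1, the heme oxygenase that frees iron from heme, rose by 2.89 (SE 0.39), with 128, 65.3 and 165 CPM in quiescent replicates 1, 2 and 3 against 13.4, 24.2 and 10.6 CPM in log replicates 1, 2 and 3. The 16 genes of iron-sulfur cluster assembly were split into 6 risen (37.5%) and 7 fallen (43.8%), with a median of -0.09. The scaffold gene ISU1 rose by 3.56 (SE 0.32), and the ferredoxin gene YAH1 fell by 3.14 (SE 0.25).

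**Figure D5:**
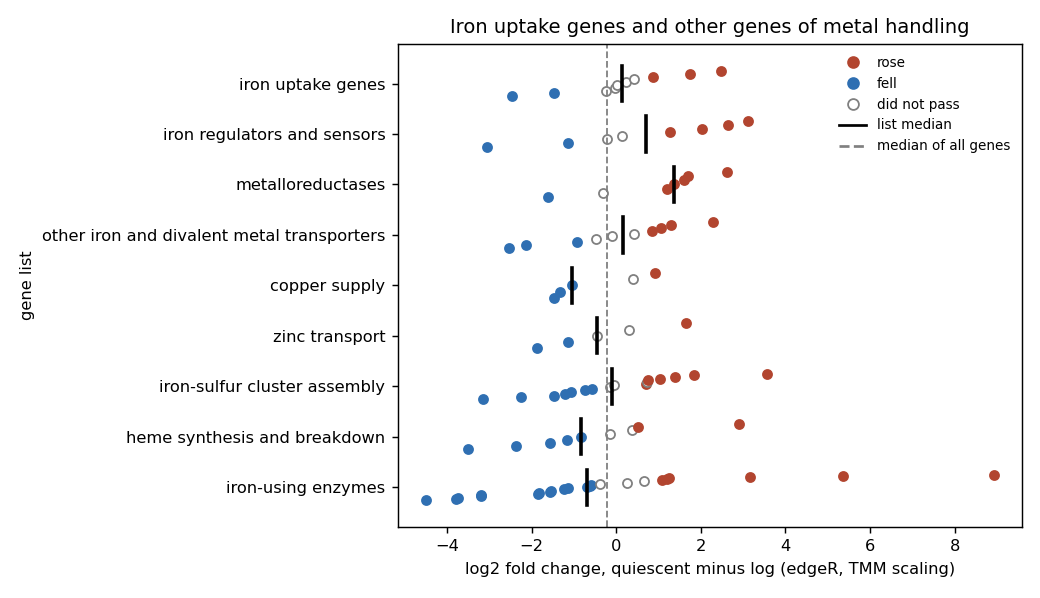
Log2 fold change, quiescent minus log, from edgeR with TMM scaling, of the 10 iron uptake genes and of 8 other lists of metal handling (points, coloured by call), with list medians and the median of all genes at -0.21. Metalloreductases have the highest list median, 1.38, and copper supply the lowest, -1.05, on this scale, and every list holds genes that rose and genes that fell.

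The 5 genes with the pattern most like that of FET3 over the 6 libraries were KRR1, DIM1, SRB7, NOG1 and SUP45, by the distance between centred log2 CPM profiles (0.36 to 0.45). Their changes were -2.27 to -2.65. FTR1 lay at a distance of 1.36, and 616 genes, FET3 included, were closer to FET3 than FTR1 was.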

How the data were processed

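The authors deposited raw counts of reads for each feature and sample, per the file headers, with feature lengths in bases. Per the labels' protocols, RNA was depleted of ribosomal RNA and sequenced on an Ion Proton. R64 is the build that the submitters' processing notes name, and no source used here gives the aligner, counter or strand setting. Spike-ins have no row of their own name, so no spike-in scaling was made, and 6 columns of per-sample values were left aside.

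TPM was computed from counts and lengths. Of 9891 rows, the 7305 (5608 genes) averaging 1 TPM or more over all 6 libraries entered the edgeR quasi-likelihood test (edgeR 4.0.16, R 4.3.3), which was two-sided, with TMM factors, no covariate and a threshold of 0.05 on adjusted p. Alternatives used DESeq2 1.42.0, limma 3.58.1 and the settings given in the closing section. The fit was tested on simulated data, in which far fewer rows changed than here and as many were set to rise as to fall. That test did not cover the scaling between groups of unlike composition. Replicates differed beyond sampling noise (chi-square per degree of freedom at least 84.1), and p-values measure the spread between these libraries.

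Members and lists were chosen with earlier results of these data known. All members are named. From each list, the called genes of largest rise and fall that reached 5 TPM on average in either group are named, together with the regulators, partners and counterparts of the members. PET8 and RKM5 were named after their values were seen, to complete a count of 8. FRE4, RRT6 and PRY3 were also named after their values were seen, as genes that passed the filter only through their higher group.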

Additional observations from a re-analysis of the deposited data

How the results depend on the processing

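The iron uptake genes that rose numbered 3 and those that fell 2 with median-of-ratios size factors, without a filter, with DESeq2, with the replicate block and without each library in turn. The number that rose was 4 with TMM from protein-coding rows, 2 with total-count scaling, 1 with a filter of 10 TPM, which only 5 of the 10 passed, and 1 in limma on log2(TPM + 1), where 6 fell. Over all genes, 669 rose (33.0%) and 1001 fell (49.3%) of the 2030 genes that the filter of 10 TPM left, where of the 5 members 1 rose and 2 fell, and 799 rose (14.2%) in limma. Of the 85 other metal genes, not all of which passed that filter, 17 rose and 17 fell with it, and 11 rose in limma. Other than for these tested numbers of genes, the cause was not tested.

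In limma on log2(TPM + 1), where the median of all genes was -0.98, the changes were -0.64 for AFT1, -1.01 for FIT2, 0.69 for FIT3, -0.46 for ARN1, -0.066 for ARN2, -1.21 for SIT1, -0.88 for CCC1, -0.15 for FET5, -0.54 for SMF3, -0.074 for CCC2 and -0.73 for CTH1. With total-count scaling FIT2 was -0.14, ARN2 0.68 and CTH1 -0.058. With TMM from protein-coding rows ARN1 was 0.66, CCC1 0.21 and GRX4 0.016. Without a filter FIT2 was -0.12 and CTH1 -0.0066, and with the filter of 10 TPM SIT1 was 0.25 and FTR1 -0.97, close to the threshold (adjusted p = 0.0490). CCC1 was 0.024 both with median-of-ratios size factors and with DESeq2.

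Leaving out each library in turn gave -0.26 to 0.38 for FIT2, -0.69 to 0.065 for SIT1, -0.25 to 0.24 for CCC1 and -0.32 to 0.044 for GRX4, none of which passed. FET3 ranged from -2.80 to -2.28 and FTR1 from -1.86 to -1.11. The 6 ratios kept their direction in each of these runs.

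The replicate numbers are shared by both groups in the labels, but samples with the same number did not deviate together (correlations of 0.10, -0.14 and -0.13), so they are not taken as pairs. With the replicate block, 1681 genes rose and 2248 fell, FIT2 was -0.057 and CCC1 0.013. Not every sample correlated best with its own number. Genes of few reads, such as FIT1 in log cells, limit the precision, and the number of libraries, 3 against 3, sets the smallest permutation p at 0.1.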
